A study of Danio rerio with 11 samples.

Results

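The comparison described here is that of irradiated torpor with torpor alone in the zebrafish liver. It sets 4 libraries of fish that were kept cold, given melatonin and irradiated (18.5-mel-rad) against 2 libraries of fish that were kept cold and given melatonin without irradiation (18.5-mel). Both groups were adult zebrafish of strain AB at 18.5 °C with 24 µM melatonin in the water for 10 days, after stepwise cooling, a treatment used to induce a torpor-like state. The irradiated fish received a whole-body dose of gamma radiation from a caesium source, labelled 32.64 cGy for the libraries and given as 32.68 cGy in the treatment protocol. The other groups used were 2 libraries of unirradiated fish at 28.5 °C without melatonin (28.5-Ctrl) and 3 libraries of fish irradiated with the same dose at 28.5 °C without melatonin (28.5-rad). Irradiated fish were anaesthetised with tricaine for the exposure, and this handling cannot be told apart from the radiation. The sources used here do not give the sex of the fish or whether a library held more than 1 fish, so p-values cannot be read as a spread between fish. They rest on a dispersion (spread between libraries) for each gene, recovered from the authors' fit of 14 libraries in 5 groups. The spread among the libraries of either torpor group alone cannot be computed.

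The deposited tables give, for each gene, a mean of normalized counts over 14 libraries in 5 groups and the log2 fold change of each treated group against 28.5-Ctrl. Subtracting the log2 fold change of 18.5-mel from that of 18.5-mel-rad removes the control level and leaves the difference between irradiated torpor and torpor alone, which is the quantity reported below on the log2 scale, with its standard error (SE, n = 4 and 2 libraries). Of 32520 zebrafish genes, 12247 had a mean count of at least 50, and the 12047 of these with a p-value form the comparison. No value per library is given in the tables, so each group is shown by its estimated mean normalized count, which was computed from the overall mean and the fold changes and carries no error of its own. A gene was called higher or lower at an adjusted p of at most 0.1 and an absolute difference of at least 0.58, which is 1.5-fold, by a 2-sided Wald test with Benjamini-Hochberg adjustment over all 27662 genes with a p-value. Read totals per library are not in the tables.

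The liver of egg-laying fish makes vitellogenins, the egg yolk precursors, under the control of estrogen and its receptor, besides blood proteins, bile acids and lipids. Cooling and melatonin lower activity and metabolism in fish. Ionising radiation breaks DNA, which calls on checkpoint kinases, repair enzymes and the transcription factor p53, whose targets halt the cell cycle or lead to cell death.

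Irradiated torpor differed from torpor alone in 3785 of 12047 genes (31.4% of those tested). In 18.5-mel-rad 1131 genes were higher (9.39%) and 2654 were lower (22.0%), with median differences of 1.51 and −2.04 on the log2 scale. The lower genes reached further: 385 of them were lower by more than 5 on the log2 scale, against 26 higher by more than 5. Over all 12047 genes the median difference was −0.04, with quartiles of −1.04 and 0.70. The median SE was 0.51.

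Estimated levels of the called genes are given for all 4 groups. Among the 2654 lower genes the median estimated mean was 527 counts in 18.5-mel and 94.3 in 18.5-mel-rad, beside 97.8 in 28.5-Ctrl and 143 in 28.5-rad. For the 1131 higher genes it was 188 counts in 18.5-mel and 554 in 18.5-mel-rad, beside 541 in 28.5-Ctrl and 472 in 28.5-rad. In both sets the median of 18.5-mel was the one farthest from that of 28.5-Ctrl. These genes were picked by the difference between the torpor groups, and the levels come from the same fold changes. The medians therefore cannot show which group moved. The comparisons of both torpor groups with 28.5-Ctrl share those control libraries, so the levels are given side by side only. In 114 of the lower genes 18.5-mel-rad was estimated at or under 3 counts, which is taken as a floor, and in 3 of the higher genes 18.5-mel was.

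The balance of calls depended on the variance and on the scaling. With the squared standard errors of both deposited comparisons added, which leaves the variance of the shared controls in, 48 genes were higher and 864 lower. With a t distribution in place of the normal 387 were higher and 1684 lower, and of 28 lists described below with a gene called higher 15 then had none. The 42 hepatocyte genes of a marker list had a median difference of 0.93, and with all differences centred on that value 222 genes were higher and 5720 lower, so that 3.74% of calls were higher in place of 29.9%. A list whose median changes sign under this scaling is named as such beside its values below. Counts of calls in every list can be read against the 9.39% of all genes that were higher and the 22.0% that were lower.

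**Figure D1:**
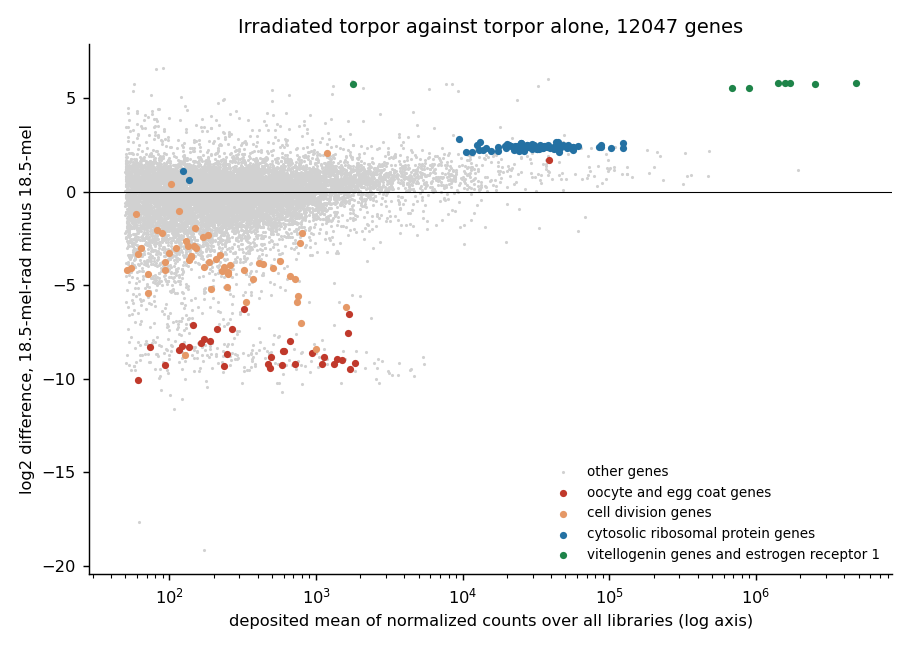
Each point is 1 of 12047 genes, with the deposited mean of normalized counts on the x axis (log axis) and the log2 difference of 18.5-mel-rad minus 18.5-mel on the y axis; 4 gene lists are coloured. The oocyte and egg coat genes other than ybx1 lie around −8.57, the median of their list, the cytosolic ribosomal protein genes near 2.40 and the vitellogenin genes and estrogen receptor 1 near 5.79.

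The largest positive differences in abundant genes were those of egg yolk production. All 7 vitellogenin genes of the list and esr1, the estrogen receptor of the liver, were higher in 18.5-mel-rad (8 of 8, where 9.39% of all genes were higher), with a median difference of 5.79 and a range of 5.54 to 5.84. vtg1 was estimated at 79809 counts in 18.5-mel and 4542200 in 18.5-mel-rad, beside 14200100 in 28.5-Ctrl and 3077100 in 28.5-rad (difference 5.83, SE 1.30, adjusted p = 0.000197 by the Wald test). The torpor group without radiation was thus the lowest of the 4 for this gene. esr1 stood at 62.2 counts in 18.5-mel and at 3358 in 18.5-mel-rad, beside 3215 in 28.5-Ctrl and 430 in 28.5-rad (difference 5.75, SE 1.14, adjusted p = 1.58e-05). Vitellogenin genes together held an estimated 1.74% of all normalized counts in 18.5-mel, 37.2% in 18.5-mel-rad, 56.3% in 28.5-Ctrl and 31.1% in 28.5-rad. Where vitellogenin genes are near-identical copies, reads may be split among them and the value of any single copy is uncertain. As the sex of the fish is not given, the groups may differ in it. The part of sex in these differences, and in those of the next paragraph, was not tested.

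Other genes rose with the vitellogenins by nearly the same amount. vtg8, a further vitellogenin gene, went from 52.1 to 3205 counts (difference 5.94, SE 1.23, adjusted p = 4.75e-05). nots, which encodes nothepsin, an aspartic protease of the fish liver, went from 623 to 31860 (difference 5.68, SE 1.30, adjusted p = 0.000306). fam20cl, of a family of secretory pathway kinases, differed by 5.79 (SE 1.28, adjusted p = 0.000162) and cyp2k6, a cytochrome P450, by 5.76 (SE 1.18, adjusted p = 3.63e-05). All were among the 10 largest positive differences of named genes estimated above 3 counts in both groups.

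**Figure D2:**
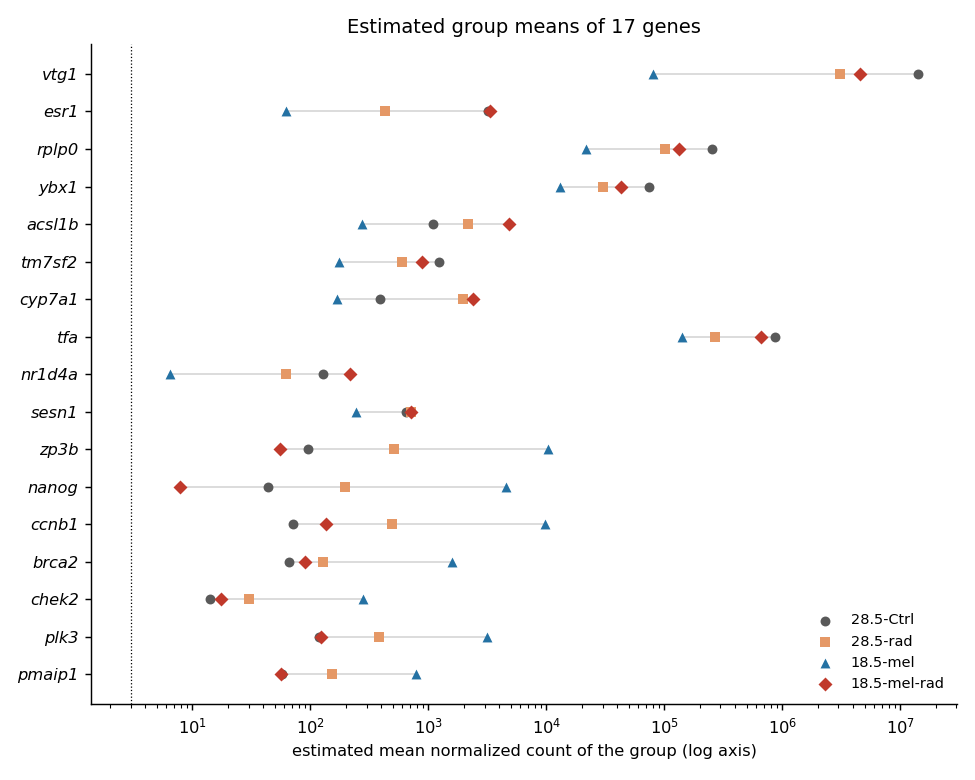
Estimated mean normalized counts (log axis) of 17 genes in the 4 groups, 1 row per gene and 1 symbol per group; the dotted line marks 3 counts, and the estimates have no error bars because the deposited tables hold no value per library. For vtg1 and esr1 the lowest symbol is 18.5-mel, at 79809 and 62.2 counts, while for zp3b, nanog and ccnb1 18.5-mel is the highest, at 10367, 4595 and 9758 counts.

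Genes of the egg were among the largest negative differences. With both groups above 3 counts, the largest negative difference of a gene with a symbol was that of chia.4, which is in none of the lists. It went from 5276 to 4.28 counts (difference −10.27, SE 1.15, adjusted p = 1.23e-16 by the Wald test). Of 34 oocyte and egg coat genes 33 were lower in 18.5-mel-rad, with a median difference of −8.57, and their number can be read against the 22.0% of all genes that were lower. nanog, a transcription factor stored in the fish egg, was estimated at 4595 counts in 18.5-mel and 7.89 in 18.5-mel-rad, beside 43.8 in 28.5-Ctrl and 197 in 28.5-rad (difference −9.19, SE 0.77, adjusted p = 2.26e-28). zp3b, an egg coat protein gene, stood at 10367 counts in 18.5-mel and 55.1 in 18.5-mel-rad, beside 96.5 in 28.5-Ctrl and 512 in 28.5-rad (difference −7.56, SE 0.73, adjusted p = 6.17e-22). The gene listed as CPEB1, whose protein controls the translation of stored messages, differed by −8.95 (SE 0.91, adjusted p = 7.17e-20). The member that was higher, ybx1, encodes an RNA-binding protein that other cells also make, and went from 13031 to 42690 counts (difference 1.71, SE 0.71, adjusted p = 0.088, not called under the scaling on hepatocyte genes).

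Apart from ybx1, the other 33 genes were all highest in 18.5-mel by their estimates. The median estimated mean of the 34 genes was 3089 counts in 18.5-mel, against 27.4 in 28.5-Ctrl, 163 in 28.5-rad, and 8.13 in 18.5-mel-rad. As a share of all normalized counts the list without ybx1 made up 0.927% in 18.5-mel, 0.00177% in 28.5-Ctrl, 0.0231% in 28.5-rad, and 0.00117% in 18.5-mel-rad. With ybx1, which held most of the counts of the list outside 18.5-mel, the shares were 1.02%, 0.116%, 0.129% and 0.114% in that order. These shares cover the listed genes only, and abundant genes outside the list that differed as much are given below. In bulk tissue, fewer cells of a type and less RNA per cell cannot be told apart. The part of oocyte RNA in the other differences below was not tested, and how it was spread over the 2 libraries of 18.5-mel cannot be computed from the tables.

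Of 29 germ cell and meiosis genes with a p-value at any mean count, 19 were lower and none higher, with a median difference of −6.78. The 17 with a mean of at least 50, of which 15 were lower with a median of −7.92, reached that mean largely through 18.5-mel. The same holds for the oocyte list, in which 39 of 40 genes with a p-value were lower at any mean, with a median of −8.52. TDRD6, a tudor protein gene of the germ plasm, went from 3589 counts in 18.5-mel to 16.5 in 18.5-mel-rad (difference −7.76, SE 0.67, adjusted p = 5.07e-27). For piwil2, which acts in the silencing of transposons in germ cells, the estimates were 740 and 3.65 counts (difference −7.66, SE 0.91, adjusted p = 1.05e-14). The gene with the smallest p of the whole comparison was tuba4l, a tubulin gene, at 7139 counts in 18.5-mel and 21.1 in 18.5-mel-rad (difference −8.40, SE 0.70, adjusted p = 5.82e-29). kpna7, an importin gene, was lower by 7.90 (SE 0.68, adjusted p = 4.32e-27), and patl2, which in mammals regulates messages in the oocyte, had a difference of −9.61 (SE 1.03, adjusted p = 9.07e-18).

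Cell division genes formed the next group that was mostly lower in 18.5-mel-rad. Their median estimated mean was 851 counts in 18.5-mel and 73.2 in 18.5-mel-rad, beside 13.7 in 28.5-Ctrl and 67.4 in 28.5-rad. Of 54 tested members 45 were lower (83.3%, beside 22.0% of all genes) and 1 was higher, with a median difference of −3.79. ccnb1, the cyclin that brings cells into mitosis, stood at 9758 counts in 18.5-mel and 135 in 18.5-mel-rad, beside 71.2 in 28.5-Ctrl and 493 in 28.5-rad (difference −6.18, SE 0.87, adjusted p = 1.49e-10). ccna1, a cyclin used in germ cells, went from 6310 counts to 18.9 (difference −8.39, SE 0.94, adjusted p = 2.19e-16). The member that was higher was ccnd1, the cyclin of early G1, at 357 counts in 18.5-mel and 1534 in 18.5-mel-rad, beside 2321 in 28.5-Ctrl (difference 2.11, SE 0.68, adjusted p = 0.0175). ccnd1 was named after its values were seen.

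Replication and licensing genes followed, with 30 of 39 lower (76.9%, beside 22.0% of all genes), 2 higher and a median of −3.13. cdt1, a licensing factor for replication origins, went from 1615 to 25.7 counts (difference −5.97, SE 0.85, adjusted p = 2.85e-10), and gmnn, its inhibitor geminin, from 4107 to 401 (difference −3.36, SE 0.64, adjusted p = 7.37e-06). None of the list was higher with a t distribution. The gene listed as MCM6 under ENSDARG00000033231 was at least 299-fold lower in 18.5-mel-rad, which was under the floor of 3 counts for the group (897 counts in 18.5-mel, adjusted p = 5.34e-17). The other MCM6 copy, mcm6 under ENSDARG00000057683, was higher, at 19.0 counts in 18.5-mel and 178 in 18.5-mel-rad (difference 3.23, SE 1.04, adjusted p = 0.0183), as was mcm3 (difference 2.79, SE 1.06, adjusted p = 0.0548), and both were named after their values were seen.

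Genes of the DNA damage checkpoint were lower in 13 of 19 cases (68.4%, beside 22.0% of all genes) and higher in 1, with a median of −1.69. topbp1, an activator of the kinase ATR, stood at 823 counts in 18.5-mel and 63.0 in 18.5-mel-rad, beside 87.2 in 28.5-Ctrl and 85.2 in 28.5-rad (difference −3.71, SE 0.58, adjusted p = 1.16e-08). The checkpoint kinase gene chek2 was estimated at 280 and 17.4 counts in the same order, beside 14.2 in 28.5-Ctrl and 30.3 in 28.5-rad. For both genes 18.5-mel was the only group above 100 counts. atm, the kinase that responds to double-strand breaks, was not called, at 474 and 209.5 counts (difference −1.18, SE 0.56, adjusted p = 0.163, 95% interval −2.28 to −0.08), and the member called higher was brcc3 (difference 0.99, SE 0.41, adjusted p = 0.0933); both were named after their values were seen.

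Repair genes were lower more often than higher, as were all genes, of which 22.0% were lower and 9.39% higher. The shares lower were 58.3% in homologous recombination, 47.6% in mismatch and excision repair and 42.9% in end joining. Of 12 homologous recombination genes 7 were lower and none higher, with a median of −1.89, and 3 were lower with a t distribution. At any mean count, 15 of 27 with a p-value were lower and none higher, with a median of −2.74. brca2, which loads the recombinase onto broken DNA, went from 1600 counts in 18.5-mel to 89.9 in 18.5-mel-rad, beside 65.6 in 28.5-Ctrl and 128 in 28.5-rad (difference −4.15, SE 0.60, adjusted p = 4.3e-10), and blm, a helicase, from 1108 to 42.8 (difference −4.69, SE 0.81, adjusted p = 4.34e-07). SEM1, the most abundant member, stood at 881 and 878 counts (adjusted p = 1, 95% interval −0.40 to 0.39). In mismatch and excision repair 20 of 42 genes were lower and 1, ercc6, was higher (difference 1.06, SE 0.45, adjusted p = 0.0946, named after its values were seen), with a median of −1.07. msh6, a mismatch recognition subunit, went from 1227 to 90.8 counts (difference −3.76, SE 0.56, adjusted p = 2.72e-09), and UNG, the uracil glycosylase, from 412 to 20.4 (difference −4.33, SE 0.66, adjusted p = 6.22e-09). The 7 end joining genes, which reseal breaks without a template, had a median of −1.30. Of these 3 were lower and none higher, the polymerase gene poll by 1.76 (SE 0.43, adjusted p = 0.000888), nhej1 (difference −1.69, SE 0.50, adjusted p = 0.0087) and lig4 (difference −1.42, SE 0.49, adjusted p = 0.0293), while prkdc stood at 465 and 279 counts (adjusted p = 0.504). Beside these lists stand the oocyte values above, since cell division, replication and repair genes were high in the same group as the oocyte genes. Some members, such as blm and the checkpoint gene chek2, reached a mean of 50 largely through 18.5-mel. At any mean, 45 of 57 cell division genes were lower and 1 higher, and 32 of 43 replication genes lower and 2 higher. The counts were 15 and 1 of 22 checkpoint genes, 24 and 2 of 51 mismatch and excision repair genes, and 6 and none of 11 end joining genes.

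Of 27 tested p53 response genes 5 were higher (18.5%, beside 9.39% of all genes) and 4 lower (14.8%, beside 22.0%), so that the share called was near that of all genes, and the median of 0.52 changes sign under the scaling on hepatocyte genes, to −0.40 with none higher and 9 lower. The lower genes were plk3, pmaip1, sesn2 and ddb2. plk3, a stress kinase, stood at 3170 counts in 18.5-mel and 124 in 18.5-mel-rad, beside 119 in 28.5-Ctrl and 382 in 28.5-rad (difference −4.68, SE 0.72, adjusted p = 7.38e-09). For pmaip1, which encodes the cell death protein Noxa, the estimates were 780 and 56.3 counts, beside 57.9 in 28.5-Ctrl and 153 in 28.5-rad (difference −3.79, SE 0.76, adjusted p = 2.44e-05). sesn2, a stress-induced inhibitor of growth signalling, differed by −2.87 (SE 0.74, adjusted p = 0.00181), and ddb2, a sensor of damaged bases, by −1.54 (SE 0.52, adjusted p = 0.0265). All 4 were highest in 18.5-mel, and all 4 were higher in 28.5-rad than in 18.5-mel-rad by their estimates.

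Among the higher genes GADD45B, a stress sensor under ENSDARG00000027744, went from 162 counts in 18.5-mel to 960 in 18.5-mel-rad, beside 666 in 28.5-Ctrl and 441 in 28.5-rad (difference 2.56, SE 0.82, adjusted p = 0.0161). The kinase gene PLK2 under ENSDARG00000019130 differed by 1.68 (SE 0.53, adjusted p = 0.0153), sesn1 by 1.55 (SE 0.64, adjusted p = 0.09), perp by 1.18 (SE 0.49, adjusted p = 0.093) and ccng2 by 1.03 (SE 0.41, adjusted p = 0.0704). None of these 5 was called when the normal distribution was replaced by a t distribution with 9 degrees of freedom. The 18 members that were not called included mdm2, BAX and ccng1. mdm2, the inhibitor of the p53 protein, stood at 273 and 161 counts, beside 161 in 28.5-Ctrl (difference −0.76, SE 0.36, adjusted p = 0.155, 95% interval −1.45 to −0.06). The cell death gene BAX had 279 and 153 counts (adjusted p = 0.458), and ccng1, the most abundant member, 1951 and 3042 (adjusted p = 0.302).

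**Figure D3:**
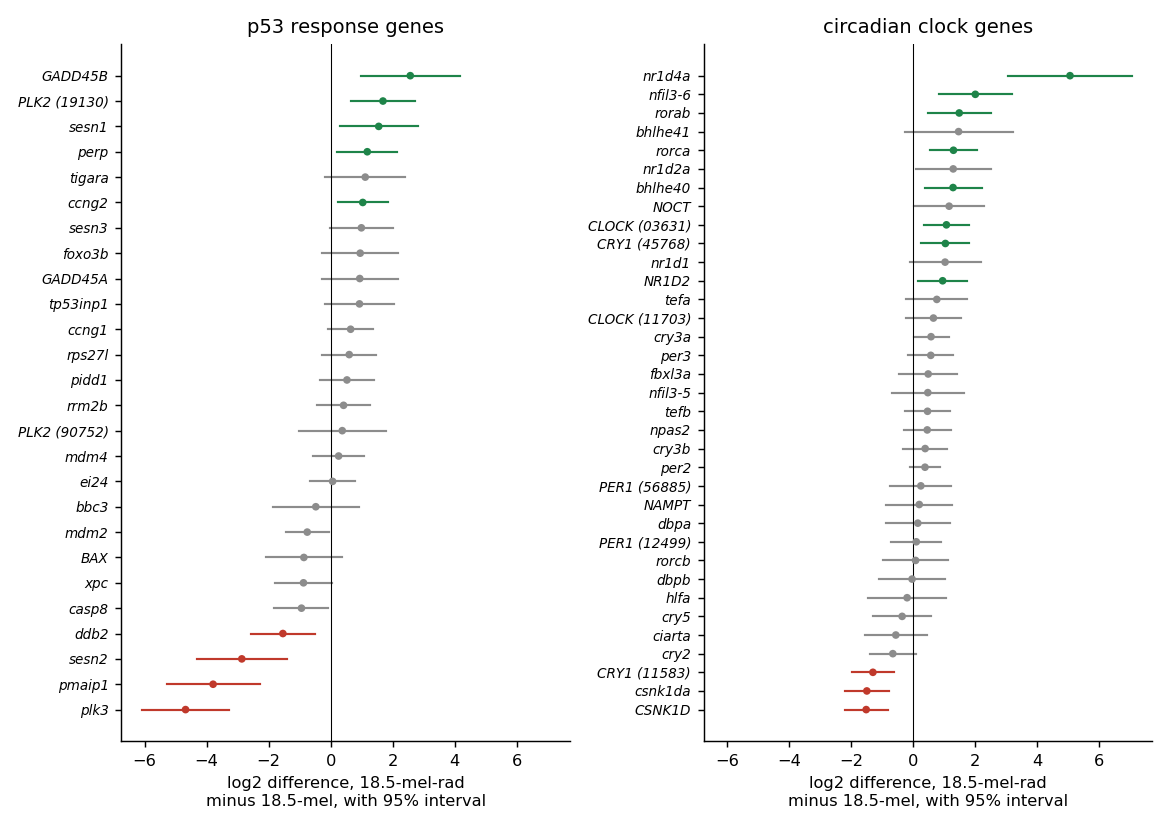
Log2 difference of 18.5-mel-rad minus 18.5-mel with its 95% interval for 26 of the 27 p53 response genes (left) and the 35 circadian clock genes (right), 1 row per gene; green marks genes called higher, red genes called lower and grey the rest, and digits in brackets end the gene identifier where a name occurs more than once. The p53 genes run from plk3 at −4.68 to GADD45B at 2.56, and the clock genes from CSNK1D at −1.51 to nr1d4a at 5.06.

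Genes of the ribosome differed in the same direction. Of 82 cytosolic ribosomal protein genes 81 were higher in 18.5-mel-rad and none lower, with a median of 2.40 and, under the scaling on hepatocyte genes, 72 higher and a median of 1.47. rplp0, a protein of the ribosomal stalk and the most abundant member, stood at 21937 counts in 18.5-mel and 133465 in 18.5-mel-rad, beside 253480 in 28.5-Ctrl and 100617 in 28.5-rad (difference 2.61, SE 0.69, adjusted p = 0.00256). rplp2 differed by 2.15 (SE 0.50, adjusted p = 0.000414) and rps12 by 2.66 (SE 0.63, adjusted p = 0.000565), and rps21 was 5.65-fold higher (adjusted p = 0.000473). With the variance of the shared controls left in, none of the 82 was called. As a share of all normalized counts the list made up 4.10% in 18.5-mel, 8.46% in 18.5-mel-rad, 7.93% in 28.5-Ctrl and 9.25% in 28.5-rad.

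Translation factors were higher in 19 of 41 cases and lower in 2, with a median of 0.94. The elongation factor gene eef1a1l1 went from 76355 to 322072 counts (difference 2.08, SE 0.64, adjusted p = 0.0115) and eef1db from 843 to 3965 (difference 2.23, SE 0.54, adjusted p = 0.00073). eef2l2, an elongation factor 2 gene outside the list, went from 21.4 to 380.3 (difference 4.15, SE 0.81, adjusted p = 1.15e-05). Both lower members act at initiation. eif4e1b, a cap-binding factor of the egg in fish, was at least 356-fold lower, from 1068 counts to under the floor (adjusted p = 5.3e-16), and eif1b went from 3265 to 936 (difference −1.80, SE 0.45, adjusted p = 0.00106). With differences centred on hepatocyte genes 1 translation factor was higher and 13 were lower, with a median of 0.01.

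In the unfolded protein response list 7 of 43 genes were higher (16.3%, beside 9.39% of all genes), 2 with a t distribution, and none lower. The median of 0.41 changes sign to −0.51 under the scaling on hepatocyte genes. The channel gene SEC61A1 went from 7705 counts in 18.5-mel to 49112 in 18.5-mel-rad, beside 106625 in 28.5-Ctrl (difference 2.67, SE 0.84, adjusted p = 0.0142), and ssr3, a subunit beside the channel, from 647 to 4118 (difference 2.67, SE 0.78, adjusted p = 0.00687). ern1, the sensor IRE1, went from 371 to 2119 (difference 2.51, SE 0.73, adjusted p = 0.00659). Outside this list, rn7sl1, the RNA of the particle that brings ribosomes to the membrane, had the third smallest p of the higher genes with a symbol. It stood at 73.5 counts in 18.5-mel and 872 in 18.5-mel-rad, beside 224 in 28.5-Ctrl and 282 in 28.5-rad (difference 3.57, SE 0.54, adjusted p = 5.25e-09). How well poly-A sequencing captures this RNA was not tested.

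**Figure D4:**
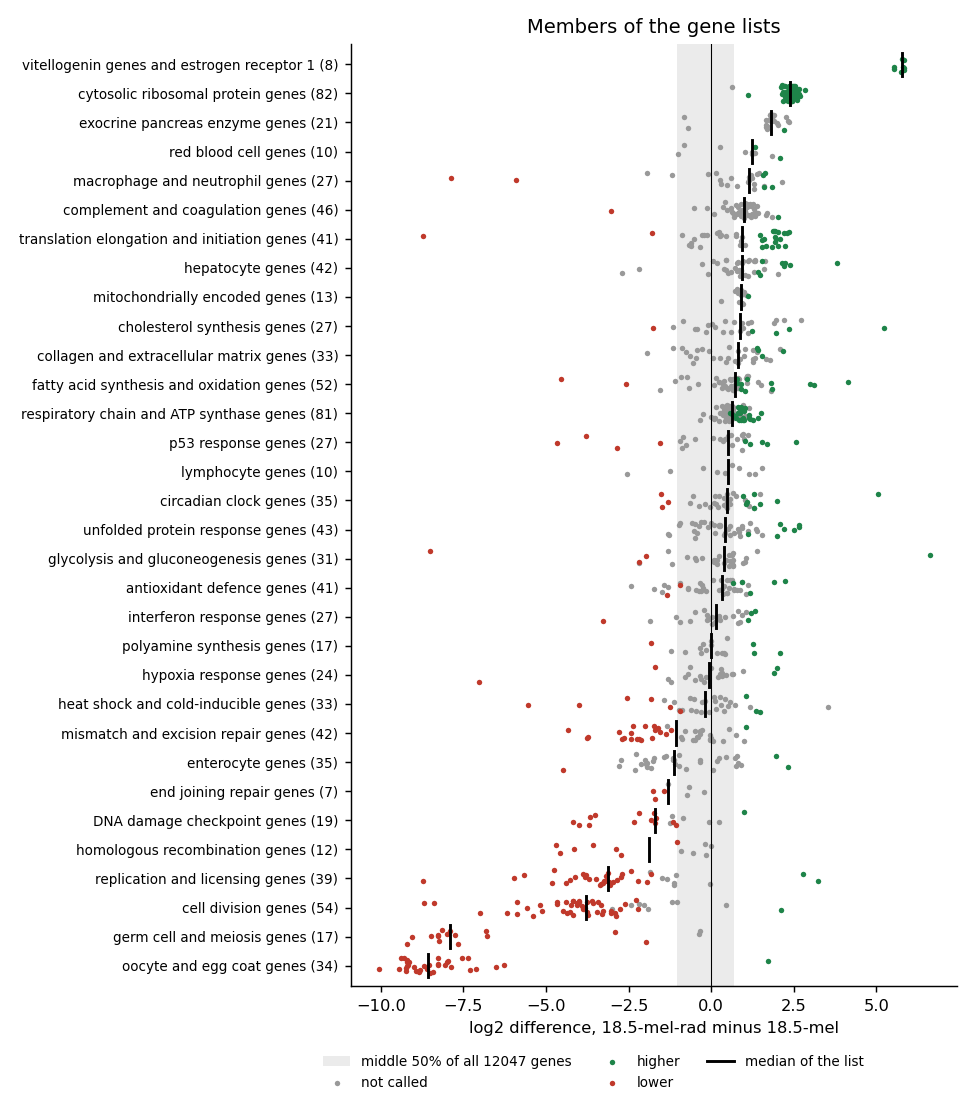
Log2 difference of 18.5-mel-rad minus 18.5-mel for every member of the 32 gene lists, 1 row per list with the number of tested members in brackets; points are genes (green higher, red lower, grey not called), black ticks are list medians and the band holds the middle 50% of all 12047 genes. The lists run from oocyte and egg coat genes, with a median of −8.57, to vitellogenin genes and estrogen receptor 1, with 5.79, and 13 lists between have medians that change sign when all differences are centred on hepatocyte genes.

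In the cholesterol synthesis list 4 of 27 genes were higher (14.8%, beside 9.39% of all genes) and 1 was lower (3.70%, beside 22.0%). The median of 0.89 changes sign to −0.04 under the scaling on hepatocyte genes. tm7sf2, a sterol reductase, went from 175 to 891 counts (difference 2.35, SE 0.46, adjusted p = 1.38e-05), while lbr, a nuclear envelope protein with the same enzyme activity, went from 486 to 144 (difference −1.76, SE 0.47, adjusted p = 0.00301). acat2, the most abundant member, stood at 2319 and 2384 counts (adjusted p = 1, 95% interval −1.72 to 1.80).

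Of 52 genes of fatty acid synthesis and oxidation 11 were higher (21.2%, beside 9.39% of all genes) and 2 lower (3.85%, beside 22.0%). Their median of 0.71 changes sign to −0.21 under the scaling on hepatocyte genes. acsl1b, which activates long-chain fatty acids, stood at 272 counts in 18.5-mel and 4821 in 18.5-mel-rad, beside 1091 in 28.5-Ctrl and 2193 in 28.5-rad (difference 4.15, SE 0.63, adjusted p = 3.54e-09). Its level in 18.5-mel-rad was the highest of the 4 groups, unlike that of vtg1, which was highest in 28.5-Ctrl. MID1IP1, a regulator of fatty acid synthesis, had the same order, with 104 counts in 18.5-mel, 301 in 28.5-Ctrl, 767 in 28.5-rad, and the highest value, 1178, in 18.5-mel-rad (difference 3.50, SE 0.57, adjusted p = 6.13e-08). The 2 genes listed as ACSL4 differed in direction. The copy under ENSDARG00000010752 went from 440 counts to 18.7 (difference −4.56, SE 0.86, adjusted p = 5.41e-06) and that under ENSDARG00000004078 from 1004 to 3605 (difference 1.84, SE 0.53, adjusted p = 0.00607). The desaturase gene listed as FADS3 went from 5766 to 47964 counts (difference 3.06, SE 0.57, adjusted p = 3.33e-06).

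Of 81 respiratory chain and ATP synthase genes 26 were higher (32.1%, beside 9.39% of all genes) and none lower, and 8 were higher with a t distribution. Their median of 0.63 changes sign to −0.29 under the scaling on hepatocyte genes. NDUFA4 went from 2852 to 8105 counts (difference 1.51, SE 0.38, adjusted p = 0.00141) and atp5pd from 1146 to 2298 (difference 1.00, SE 0.27, adjusted p = 0.00275). Among 13 mitochondrially encoded genes mt-nd3 was higher (difference 1.11, SE 0.42, adjusted p = 0.0581) and the other 12 were not called, with a median of 0.90 that changes sign to −0.02 under that scaling. Glycolysis and gluconeogenesis had 1 gene higher (3.23%) and 3 lower (9.68%) of 31, both below the shares of all genes (9.39% and 22.0%). The median of 0.40 becomes −0.53 under that scaling. LDHB, a lactate dehydrogenase subunit, went from 4271 to 1078 counts (difference −1.99, SE 0.55, adjusted p = 0.0044), PKM from 2345 to 513 (difference −2.19, SE 0.66, adjusted p = 0.00912) and the TPI1 copy under ENSDARG00000025012 was at least 216-fold lower (adjusted p = 3.22e-07). The higher gene, ALDOA under ENSDARG00000034470, was at or under 3 counts in 18.5-mel and in 28.5-Ctrl and reached 238 in 18.5-mel-rad, which is at least 79.4-fold higher (adjusted p = 0.0156, named after its values were seen).

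Genes of the hepatocyte, the main cell of the liver, made up 14.0% of all normalized counts in 18.5-mel and 11.9% in 18.5-mel-rad, beside 7.05% in 28.5-Ctrl and 6.42% in 28.5-rad. Such shares move with the vitellogenin genes, which held 1.74%, 37.2%, 56.3% and 31.1% in the same order. Summed, the estimated counts of the list went the other way, with 2073230 in 18.5-mel and 4506820 in 18.5-mel-rad. The sums were 4588120 in 28.5-Ctrl and 1823430 in 28.5-rad. Of 42 members 8 were higher (19.0%, beside 9.39% of all genes) and none lower. With a t distribution 2 were higher. The transcription factor gene cebpa (208 and 1097 counts, difference 2.40, SE 0.62, adjusted p = 0.00176) was higher in 18.5-mel-rad. tfa, the iron carrier transferrin, stood at 142743 counts in 18.5-mel and 655541 in 18.5-mel-rad, beside 866189 in 28.5-Ctrl (4.59-fold higher, SE 0.84 on the log2 scale, adjusted p = 0.0594). cyp7a1, the rate-limiting enzyme of bile acid synthesis and named after its values were seen, had 168 counts in 18.5-mel and 2374 in 18.5-mel-rad, beside 393 in 28.5-Ctrl and 1959 in 28.5-rad (difference 3.82, SE 1.25, adjusted p = 0.0208). Both irradiated groups were thus above both unirradiated groups for cyp7a1. Among complement and coagulation genes, which the liver secretes, 1 of 46 was higher and 1 lower, with a median of 0.98. These were c3a.2, a complement C3 gene (16215 and 66428 counts, difference 2.03, SE 0.78, adjusted p = 0.0602), and f3b, tissue factor (228 and 27.7 counts, difference −3.04, SE 0.77, adjusted p = 0.00139).

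The circadian clock list held 8 higher (22.9%, beside 9.39% of all genes) and 3 lower genes (8.57%, beside 22.0%) of 35. Its median of 0.47 changes sign to −0.45 under the scaling on hepatocyte genes. nr1d4a, a nuclear receptor of the Rev-erb family, stood at 6.51 counts in 18.5-mel and 217 in 18.5-mel-rad, beside 128 in 28.5-Ctrl and 62.0 in 28.5-rad (difference 5.06, SE 1.02, adjusted p = 2.5e-05). nfil3-6, a repressor of clock output, had 444 and 1782 counts, beside 475 in 28.5-Ctrl and 729 in 28.5-rad (difference 2.00, SE 0.60, adjusted p = 0.00913). The other higher genes were rorca, rorab, bhlhe40, CLOCK under ENSDARG00000003631, CRY1 under ENSDARG00000045768 and NR1D2, with differences of 1.30, 1.49, 1.29, 1.07, 1.04 and 0.95. All 3 lower genes act on the stability or activity of the period proteins or repress the clock. CSNK1D under ENSDARG00000006125 and csnk1da, both casein kinase genes, differed by −1.51 (SE 0.35, adjusted p = 0.000379) and −1.49 (SE 0.36, adjusted p = 0.000735), and the CRY1 copy under ENSDARG00000011583 by −1.30 (SE 0.34, adjusted p = 0.00241). The period genes per2 (901 and 1175 counts, adjusted p = 0.362) and per3 (556 and 826 counts, adjusted p = 0.377) were not called. The hour of sampling is not given in the sources used here.

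Among heat shock and cold-inducible genes 3 of 33 were higher (9.09%) and 6 lower (18.2%), near the 9.39% and 22.0% of all genes, with a median of −0.19. With a t distribution none was higher and 3 were lower. dnajb1b, a co-chaperone, went from 903 to 56.7 counts (difference −3.99, SE 0.61, adjusted p = 4.61e-09), whereas hsp90ab1, the most abundant member, went from 40785 to 103921 (difference 1.35, SE 0.52, adjusted p = 0.0582). The cold-inducible RNA-binding protein genes, named after their values were seen, were not called and had narrow intervals, cirbpa with 5496 and 5855 counts (95% interval −0.33 to 0.52) and cirbpb with 10881 and 13184 (95% interval −0.17 to 0.72), but both were called lower under the scaling on hepatocyte genes. Antioxidant genes counted 5 higher (12.2%, near the 9.39% of all genes) and 2 lower (4.88%) of 41. Their median of 0.32 changes sign to −0.61 under the scaling on hepatocyte genes. TXN, thioredoxin, went from 1824 to 3485 counts (difference 0.93, SE 0.22, adjusted p = 0.000493), and gclm, a subunit of the first enzyme of glutathione synthesis, from 597 to 238 (difference −1.33, SE 0.43, adjusted p = 0.0199). Hypoxia genes counted 2 higher (8.33%, near that of all genes) and 2 lower (8.33%) of 24, with a median of −0.08. egln3, an oxygen sensor, differed by 1.92 (SE 0.56, adjusted p = 0.00674) and hif1al by −1.71 (SE 0.39, adjusted p = 0.000248).

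Polyamine synthesis, which supplies growing cells, had 3 higher (17.6%, beside 9.39% of all genes) and 1 lower gene (5.88%, beside 22.0%) of 17. Its median of 0.00 becomes −0.92 under the scaling on hepatocyte genes. With a t distribution none was higher and 1 was lower. srm, spermidine synthase, went from 638 to 180 counts (difference −1.82, SE 0.55, adjusted p = 0.00927), and SMOX, spermine oxidase, from 211 to 887 (difference 2.07, SE 0.76, adjusted p = 0.046). odc1 and amd1, the rate-limiting enzymes, were named after their values were seen and were not called. odc1 had 896 and 798 counts (adjusted p = 1, 95% interval −1.88 to 1.55), beside 78.5 in 28.5-Ctrl. amd1 had 263 and 208 (adjusted p = 0.754, 95% interval −1.10 to 0.42), beside 54.5 in 28.5-Ctrl. Collagen and matrix genes counted 4 higher of 33 (12.1%, near the 9.39% of all genes) and none lower. None of the 4 was called with a t distribution. The list median of 0.80 changes sign to −0.12 under the scaling on hepatocyte genes, with none higher and 6 lower. The collagen gene col5a1 went from 169 to 454 counts (difference 1.43, SE 0.52, adjusted p = 0.0432) and the laminin gene lama4 from 72.6 to 192 (difference 1.40, SE 0.52, adjusted p = 0.0498).

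Genes of other cell types were read from marker lists. Of 27 macrophage and neutrophil genes 4 were higher (14.8%, beside 9.39% of all genes) and 2 lower (7.41%, beside 22.0%), with a median of 1.16. cd74a, which guides antigen loading, went from 1027 to 3650 counts (difference 1.83, SE 0.56, adjusted p = 0.0116), while ctss2.1, a cathepsin gene, went from 7918 to 131 (difference −5.91, SE 0.90, adjusted p = 5.74e-09) and the MFAP4 copy under ENSDARG00000116066 was at least 183-fold lower (adjusted p = 2.27e-05). Those 4 higher genes were not called with a t distribution. Of 27 interferon response genes 3 were higher (11.1%, near the 9.39% of all genes) and 1 lower (3.70%, beside 22.0%). Their median of 0.15 changes sign to −0.77 under the scaling on hepatocyte genes. The member that was lower, socs1a, an inhibitor of cytokine signals, went from 383 to 39.8 (difference −3.27, SE 0.92, adjusted p = 0.00472). None of the 10 lymphocyte genes passed the Wald test, 1 had an unadjusted p under 0.05, and their median of 0.52 becomes −0.40 under that scaling. Red blood cell genes were higher in 2 of 10 cases (20.0%, beside 9.39% of all genes), with a median of 1.23. These were hemgn by 1.33 (SE 0.42, adjusted p = 0.0147) and cahz 4.28-fold (SE 0.86 on the log2 scale, adjusted p = 0.0864), and neither was called with a t distribution.

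Digestive genes had the widest errors of the 32 lists, with median SEs of 2.13 and 1.97 for the lists below. Among 21 exocrine pancreas enzyme genes the median was 1.82 and only amy2al1, an amylase gene, was higher (5080.4 and 23284 counts, 4.58-fold higher, SE 0.86 on the log2 scale, adjusted p = 0.0673). This is 4.76% of the list, beside 9.39% of all genes, and amy2al1 was not called with a t distribution. The trypsin gene prss59.1 had 15490 and 58340 counts, with an SE of 2.13 and a 95% interval of −2.26 to 6.09, so a difference was not detectable with these libraries. For 35 enterocyte genes the median was −1.13, with 2 higher (5.71%, beside 9.39% of all genes) and 1 lower (2.86%, beside 22.0%). SLC26A3, a chloride exchanger, went from 582 to 2937 counts (difference 2.34, SE 0.54, adjusted p = 0.000338) and RBP2 from 2510 to 9706 (difference 1.95, SE 0.66, adjusted p = 0.0272). tmprss15, which activates trypsin in the gut, went from 244 to 10.9 (difference −4.49, SE 1.89, adjusted p = 0.0966). The median estimated mean of the enterocyte genes was 108 counts in 18.5-mel and 38.2 in 18.5-mel-rad, beside 42.3 in 28.5-Ctrl and 6642 in 28.5-rad, so that 28.5-rad stood apart in these genes as 18.5-mel did in oocyte genes.

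Some of the 10 lower genes with the highest mean counts are not in the oocyte list but differed as much. zpax1 stood at 34567 counts in 18.5-mel and 74.9 in 18.5-mel-rad, and zgc:111868 at 35401 and 61.0. Differences were −9.84 for zgc:152652, −9.54 for si:ch211-146l10.8, −9.48 for si:ch1073-263o8.2 and −9.13 for wu:fi42e03. The oocyte share given above leaves these genes out, so it does not cover all RNA with this pattern. In 18.5-mel the 34 genes of the oocyte list summed to 148907 counts. In that group zgc:152652 had 30825 counts, si:ch1073-263o8.2 28949, si:ch211-146l10.8 28741 and wu:fi42e03 23973, besides the values of zpax1 and zgc:111868. The other abundant lower genes of this rule are in none of the lists. pfn2b, a profilin that binds actin, stood at 8443 counts in 18.5-mel and 1720 in 18.5-mel-rad, beside 2269 in 28.5-Ctrl and 9341 in 28.5-rad (difference −2.30, SE 0.79, adjusted p = 0.0306). ctsba, the lysosomal protease cathepsin B, went from 11000 to 3102 counts (difference −1.83, SE 0.49, adjusted p = 0.00277), and tubb4b, a tubulin gene, from 10793 to 3122 (difference −1.79, SE 0.44, adjusted p = 0.000891). GYG1, glycogenin, which primes glycogen, had another order of groups, with 8433 counts in 28.5-Ctrl, 6263 in 18.5-mel, 3044 in 28.5-rad, and the lowest value, 1869, in 18.5-mel-rad (difference −1.74, SE 0.66, adjusted p = 0.0549). Both irradiated groups were below both unirradiated groups for GYG1.

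The same dose was given at 28.5 °C, so the difference between 18.5-mel-rad and 18.5-mel could be set against that between 28.5-rad and 28.5-Ctrl, which uses none of the same libraries. This second difference was compared after the data had been seen. Across the 12047 genes, which are not independent replicates, the differences had a Pearson r of −0.32 and a Spearman rho of −0.36. The vitellogenin and estrogen receptor genes had medians of 5.79 with torpor and −1.97 without it, the cytosolic ribosomal protein genes 2.40 and −0.93, and the oocyte and egg coat genes −8.57 and 2.61. Cell division genes had medians of −3.79 and 2.22, and the p53 response genes of 0.52 and 0.41. In a Wald test of the interaction, the torpor difference was above the difference at 28.5 °C in 1224 genes (10.2%) and below it in 2646 (22.0%), at the same thresholds. Of the 27 p53 response genes it was above in 2 and below in 7, near the 10.2% and 22.0% of all genes. Those below included plk3, pmaip1 and sesn2. The near-equal medians of that list thus do not show like responses of its members. Among genes without an interaction call, cyp7a1 gave an adjusted p of 0.753 and GYG1 a value of −0.27 (adjusted p = 1), and perp one of −0.02 (adjusted p = 1), which does not show that the responses were alike. The temperature, the melatonin and the torpor state cannot be told apart in this comparison, since 28.5-rad and 28.5-Ctrl had neither cold nor melatonin.

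**Figure D5:**
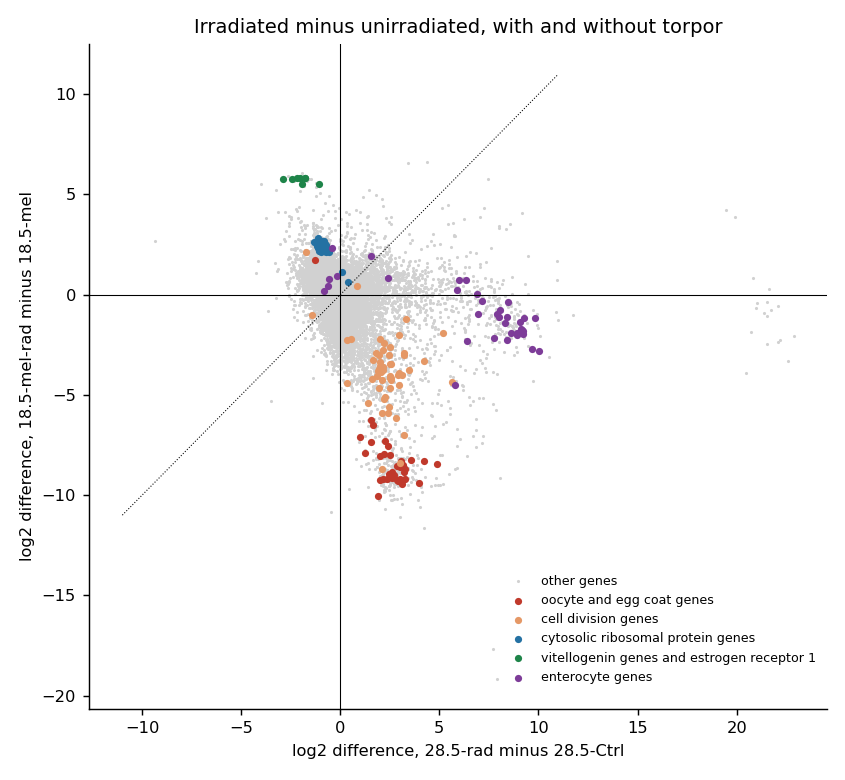
Each point is 1 of 12047 genes, with the log2 difference of 28.5-rad minus 28.5-Ctrl on the x axis and that of 18.5-mel-rad minus 18.5-mel on the y axis; coloured points are 5 gene lists and the dotted line marks equal differences. Vitellogenin and ribosomal protein genes lie in the upper left, most oocyte and cell division genes in the lower right, and enterocyte genes far to the right, with a median of 8.02 on the x axis and −1.13 on the y axis.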

How the data were processed

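Livers of adult AB zebrafish were profiled by single-end poly-A RNA sequencing. The authors trimmed reads (cutadapt), aligned them (STAR, GRCz11), counted them per gene (HTSeq) and compared each treated group with 28.5-Ctrl in DESeq2; tool versions and the counting strand are not given in the sources used here. The deposited tables hold the mean signal of normalized counts over all libraries, the log2 fold change and its standard error, a Wald score, and p-values with their adjusted values. Of these comparison columns the mean, log2 fold change and standard error were used, since the tables used here hold no value per library, and the p-values only to mark which genes had one.

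The 2 log2 fold changes were joined by symbol and subtracted. The dispersion and group means were recovered for each gene from the mean, the fold changes and the standard errors, so that the variance of the shared controls could be removed; means below 0.5 counts were set to 0.5 in the variance. The 18.5-rad libraries are in the authors' fit but were not analysed here, and their log2 fold change was taken as the mean of 28.5-rad and 18.5-mel-rad. Python 3.11.15, numpy 2.4.6, pandas 2.3.3 and scipy 1.17.1 were used. The Wald test used a normal distribution with Benjamini-Hochberg adjustment. In simulated counts of 6000 genes, 200 of them changed, it recovered 72% of the changed genes and called 0.41% of the unchanged. Of changes of 1 on the log2 scale it recovered 16.2%. The simulation gave each gene the same dispersion in all groups, as the method does, so it cannot test that assumption. Depth per library is not in the tables, which limits precision to the standard errors.

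Genes were named by rule: in each direction the 10 with the smallest p, the 10 largest differences with both groups above 3 counts and the 10 highest means among called genes; in each of 32 lists the 3 smallest p and the highest mean; and any p53, vitellogenin or clock gene. The members and lists were chosen with earlier results of these data known. The comparison with 28.5 °C, the list counts centred on hepatocyte genes and the oocyte share without ybx1 were added after seeing the data. Alternatives covered the variance, distribution, scaling, adjustment, filters, thresholds and 18.5-rad. A few genes are not reported here.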

Additional observations from a re-analysis of the deposited data

Results flagged for a closer look

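The difference between irradiated and unirradiated fish was not the same at 18.5 °C with melatonin as at 28.5 °C by a Wald test of the interaction. It was higher in 1224 genes (10.2%) and lower in 2646 (22.0%) of 12047, and 138 of the 226 genes that the naming rule gave or that were named after their values were seen were among them. Most of the 226 were picked by their torpor difference, which is part of the interaction. The number among them therefore cannot be read against that of all genes. The genes given next come from the same 226. Among genes with a positive interaction, esr1 had 8.66 (SE 1.65, adjusted p = 9.33e-06), vtg8 8.57 (SE 1.79), eef2l2 6.33 (SE 1.16), FADS3 4.40 (SE 0.82) and tm7sf2 3.38 (SE 0.67). Among genes with a negative interaction, zp3e had −11.57 (SE 1.07, adjusted p = 6.7e-23), nanog −11.36, tuba4l −11.12 (SE 1.01), kpna7 −10.49 (SE 0.99) and TDRD6 −10.38 (SE 0.99). For the last 5 genes 18.5-mel had the highest estimated mean of the 4 groups. The part of oocyte RNA in 18.5-mel and of enterocyte RNA in 28.5-rad in the interactions was not tested.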

How the results depend on the processing

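No paired analysis was possible because the tables used here hold no value per library, and leaving out single libraries was not run for the same reason. Against 1131 higher and 2654 lower genes, there were 48 and 864 with the variance of the shared controls left in, 387 and 1684 by a t distribution on the 9 residual degrees of freedom, 320 and 1514 with a Wald test against 0.58, 222 and 5720 centred on hepatocyte genes and 646 and 1542 over the 6114 genes with a human ortholog. A mean count of at least 200 gave 822 and 1263 over 6952 genes, so that 39.4% of calls were higher in place of 29.9%. The last 2 counts come from fewer genes. Counting all members with a p-value, whatever their mean, moved the median of homologous recombination genes to −2.74 and that of germ cell and meiosis genes to −6.78. Of 226 genes that the naming rule gave or that were named after their values were seen, 156 were called. Of these, 72 were called under every alternative that held them. The ortholog and mean count filters left some of the 226 out, and 172 had a mean of at least 200. The call was lost by 83 with the control variance left in, 45 centred on hepatocyte genes, 45 with the Wald test against 0.58, 43 with a t distribution and 20 at an adjusted p of 0.05. Centred on hepatocyte genes, 3 genes reversed to a called decrease, ei24 ENSDARG00000053840 to −0.87 (adjusted p = 0.0745), cirbpa ENSDARG00000103672 to −0.83 and cirbpb ENSDARG00000013351 to −0.65; this follows from the shift of 0.93 applied to every gene.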
